A study of Rattus norvegicus with 6 samples.

Results

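The genes described here are 10 genes of the ATF4 branch of the integrated stress response: Atf4 itself, Ddit3, Asns, Trib3, Sesn2, Chac1, Psat1, Phgdh, Gdf15 and Ppp1r15a. They were listed by gene name, with earlier results of these data known, and 9 of the 10 had a probe on the array, among 13876 genes with a probe in all. Chac1, which encodes an enzyme that degrades glutathione, had no probe and is not analysed here. Each of the 9 genes had 1 probe with 1 spot, so no second probe checks a value.

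The arrays measured heart muscle RNA of male Wistar rats. The border-zone group holds 3 arrays (M17, M24 and M25) of rats whose left anterior descending coronary artery (LAD) had been ligated, with the margin of the infarct found by TTC and EB staining and sampled after 6 h. The sham group holds 3 arrays of sham-operated rats (C4, C5 and C6). All 6 samples are total RNA of bulk tissue labelled with Cy3, and the labels give neither the age of the rats nor whether tissue was pooled.

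In the integrated stress response, kinases that sense amino acid shortage, unfolded protein, haem shortage or viral RNA phosphorylate the translation factor eIF2. Most protein synthesis then slows, while translation of the Atf4 mRNA increases because of the upstream reading frames in its leader. ATF4 is a transcription factor that switches on genes for amino acid synthesis and uptake, tRNA charging and, in prolonged stress, cell death. An array reads only the mRNA, so ATF4 protein and eIF2 phosphorylation were not measured.

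ATF4 pairs with C/EBP proteins on the C/EBP-ATF composite element, whose core is written here as TGATGNAA. RefSeq promoter sequences (GRCr8 assembly, 250 bases before to 50 after the start of each gene) were searched for it on both strands, and 1332 of 33469 promoters (3.98%) held it. Of the 10 genes, 2 held it, Trib3 and Chac1. Over these genes and the 7 further lists described below, 17 genes held it upstream of the start. Of the 14 of these that were tested, 5 rose in the border zone, where 9.01% of all probes tested rose. The other 9 did not pass the test: Fgf21, Pck2, Jdp2, Herpud1, Tars1, Mars1, Iars1, Nars1 and Aars1. In the lists where no searched promoter held it, 5 of 11 p53 target genes, 4 of 17 ATF6 and XBP1 genes and 1 of 6 one-carbon enzymes rose. Whether the element goes with a rise was not tested. The sequences below show where the element lies in Chac1 and in the 5 genes with a match that rose: Trib3, 2 genes of the eIF2 group (Eif2s2 and Ppp1r15b), the stress gene Nupr1 and the amino acid transporter Slc38a1. They were chosen after the values were seen. Each is a 60-base stretch read 5′ to 3′ on the gene's strand, with the match, or its reverse complement, in capitals.
Trib3: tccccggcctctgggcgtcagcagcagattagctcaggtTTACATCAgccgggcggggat
Chac1: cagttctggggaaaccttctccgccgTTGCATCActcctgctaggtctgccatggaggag
Nupr1: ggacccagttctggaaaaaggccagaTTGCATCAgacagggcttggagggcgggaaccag
Eif2s2: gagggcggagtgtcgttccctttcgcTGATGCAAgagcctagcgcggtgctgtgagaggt
Ppp1r15b: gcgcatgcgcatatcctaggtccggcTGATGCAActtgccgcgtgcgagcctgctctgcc
Slc38a1: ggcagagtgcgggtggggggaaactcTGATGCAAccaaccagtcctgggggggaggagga
The Trib3 stretch lies at chr3:161275534-161275593 on the minus strand, with the match from base -21 to -14 relative to the start. The Chac1 stretch is chr3:126795938-126795997 on the plus strand, with the match at -167 to -160. Nupr1 (chr1:190645923-190645982, minus strand) has its match at -55 to -48. For Eif2s2 (chr3:163855573-163855632, minus strand) the match is at -36 to -29. For Ppp1r15b (chr13:47129796-47129855, plus strand) it is at -178 to -171, and for Slc38a1 (chr7:129681510-129681569, minus strand) at -142 to -135. The letters in capitals are identical in Chac1 and Nupr1, and identical in Eif2s2, Ppp1r15b and Slc38a1, which carry the reverse complement of the Chac1 form. A match describes the letters and does not show that ATF4 binds there, and the 8 genes without a match, Asns among them, were not searched outside these 300 bases.

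Signals are given as normalized log2 signal, which is the log2 of the array's processed signal minus that array's 75th percentile, so 0 is the level of the 75th percentile probe and negative values are dimmer. Levels of different genes are not compared, since each probe has its own brightness. Differences are log2 fold changes, border zone minus sham, with the standard error of the limma fit over 3 arrays per group. A gene is said to have risen or fallen when its Benjamini-Hochberg adjusted p over all 17930 probes tested was below 0.05. Across all probes tested, 9.01% rose and 10.3% fell by this rule. Some counts at an unadjusted p below 0.05 are also given. The share of all probes at that cut was not counted, so these counts have no background beside them. That share cannot be smaller than the share called in the same fit.

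Some arrays stand apart in ways that touch the results. All border-zone arrays and C4 were scanned together, while C5 and C6 each had a scan of their own. Blocking on the scan therefore compares the border zone with C4 alone, the 2 residual degrees of freedom hold no spread between sham arrays, and it called 8.43% of probes higher and 7.5% lower. Probes well above background made up 74.3% to 78.3% on the border-zone arrays, against 73.7% on C4, 51.0% on C5 and 52.4% on C6. M25 lay between M17 and M24 for 70.5% of all probes tested, and for 9 of the 9 genes described here. Among the 572 tested probes on which M17 and M24 differed by more than 2-fold, the share was 97.6%. Whether M25 is a separate animal is therefore in doubt. Without M25, 1.59% of probes were called higher and 1.24% lower. Markers of heart muscle cells were well above background on all 6 arrays for 12 of 12 genes, with a summed linear level of 791 to 846 in the border zone and 802 to 1032 in sham.

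Of the 9 genes, 3 rose in the border zone (Asns, Trib3 and Gdf15), none fell, and 5 passed an unadjusted p below 0.05. Over all probes tested 9.01% rose, and the share at the unadjusted cut was not counted. In 5 genes every border-zone array lay above every sham array, a pattern seen for 20.9% of all probes tested. Gdf15 is among these, though C5 and C6 were not well above background for it. Its value on M17 lay below the lowest signal called well above background on C5 and on C6. The median log2 fold change of the 9 genes was 0.64, against -0.026 over all probes tested. With scan as a block, Atf4, Asns and Trib3 were called higher. Without M25, none of the 9 was called and 3 passed an unadjusted p below 0.05. A change in the number of cells of a type and a change in RNA per cell cannot be told apart in these bulk samples.

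**Figure D1:**
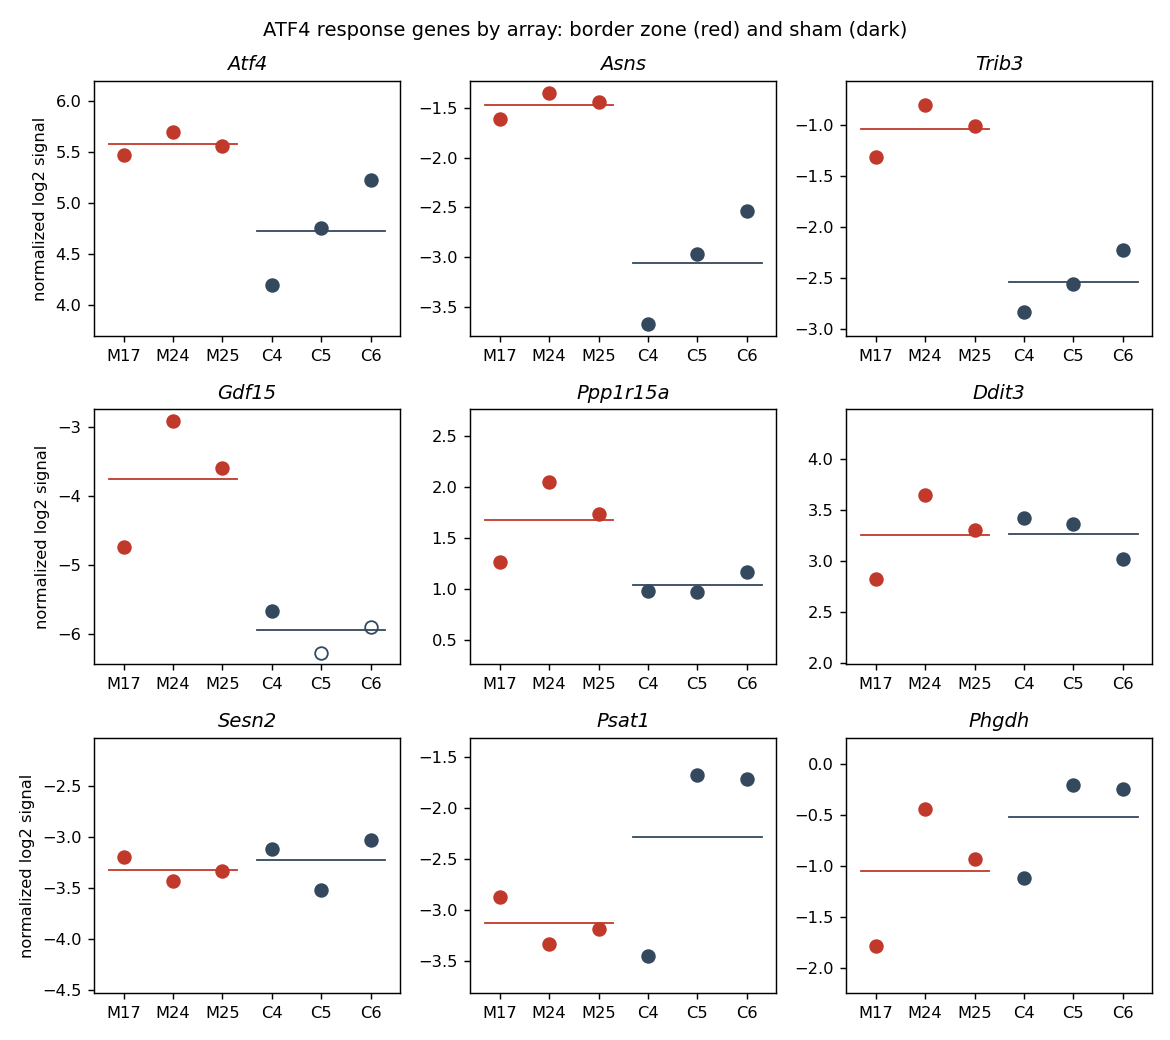
Normalized log2 signal (vertical axes, 1 panel per gene, each with its own range) of the 9 genes on each array, border zone in red (M17, M24, M25) and sham in dark blue (C4, C5, C6). Lines are group means and open points, Gdf15 on C5 and C6, are not well above background. Atf4, Asns, Trib3, Gdf15 and Ppp1r15a have every border-zone point above every sham point, and Psat1 and Phgdh have C4 low and C5 and C6 high.

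Atf4, which encodes the transcription factor of the response, read 5.46, 5.70 and 5.55 in normalized log2 signal on M17, M24 and M25 of the border zone, against 4.19, 4.76 and 5.22 on sham C4, C5 and C6. The groups did not overlap, but C6 lay close to the border zone and the sham arrays spread over more than a log2 unit. The border zone was 1.80-fold higher (log2 fold change 0.85 ± 0.27, 95% interval 0.19 to 1.51), which did not pass the test (adjusted p = 0.0777). With scan as a block, which sets C4 alone against the border zone, the difference was 1.38 and passed (adjusted p = 0.0172).

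Asns encodes asparagine synthetase, which makes asparagine from aspartate and glutamine. Its normalized log2 signal was -1.61, -1.35 and -1.45 on M17, M24 and M25, against -3.67, -2.97 and -2.54 on C4, C5 and C6. All border-zone arrays were above all sham arrays, and the border-zone arrays lay much closer together than the sham arrays. Asns rose 3.02-fold (log2 fold change 1.59 ± 0.30, 95% interval 0.87 to 2.32, adjusted p = 0.0194). Blocking on the scan gave 2.21 (adjusted p = 0.0114), and leaving out M25 gave an adjusted p of 0.0970. With normexp background correction the log2 fold change was 0.78 (adjusted p = 0.118).

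Trib3 encodes a pseudokinase that binds ATF4 and AKT. The normalized log2 signal of Trib3 was -1.31, -0.80 and -1.01 on M17, M24 and M25, against -2.83, -2.56 and -2.22 on C4, C5 and C6. The gap between the groups was wider than the spread within either. Trib3 rose 2.82-fold (log2 fold change 1.5 ± 0.21, 95% interval 0.97 to 2.02, adjusted p = 0.00953). It was also called with scan as a block (1.79, adjusted p = 0.0257), while without M25 the adjusted p was 0.0651 at a log2 fold change of 1.48. With normexp background correction the call was lost at 0.91 (adjusted p = 0.0608). Of 16 settings of the processing, Trib3 was called in 13, Asns in 10 and Atf4 in 5. Trib3 is the only one of the 9 measured genes whose promoter stretch, printed above, holds the composite element.

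Gdf15 encodes growth differentiation factor 15, a secreted hormone of stressed cells that acts on appetite through the brain stem. Its normalized log2 signal was -4.74, -2.92 and -3.60 on M17, M24 and M25, against -5.67, -6.28 and -5.91 on C4, C5 and C6. C5 and C6 were not well above background, so sham was measured on C4 only, and M17 was far below M24. Gdf15 rose 4.60-fold as fitted (log2 fold change 2.20 ± 0.47, adjusted p = 0.0286). C5 and C6 were also raised to the lowest signal called well above background on each of those arrays, -4.49 and -3.98. The border zone was then 1.95-fold higher. This is not a lower bound, since the value on M17 is itself below both of those limits. Gdf15 was not called with scan as a block (log2 fold change 1.92, adjusted p = 0.163), without M25 (2.12, adjusted p = 0.122) or with normexp background correction, where its log2 fold change was 0.039.

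Ppp1r15a encodes GADD34, the stress-induced subunit that directs protein phosphatase 1 to eIF2 and so ends the response. Its normalized log2 signal was 1.27, 2.05 and 1.74 on M17, M24 and M25, against 0.98, 0.98 and 1.17 on C4, C5 and C6. The groups did not overlap, but M17 was only just above C6. The difference of 0.64 ± 0.22 (1.56-fold, 95% interval 0.11 to 1.17) did not pass (adjusted p = 0.0900), and Ppp1r15a was called in 0 of 16 settings.

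Ddit3 encodes CHOP, a transcription factor of the late, pro-apoptotic arm of the response. Its normalized log2 signal was 2.83, 3.65 and 3.31 on M17, M24 and M25, against 3.42, 3.37 and 3.02 on C4, C5 and C6. The groups overlapped fully, with the lowest and the highest value both in the border zone. The log2 fold change was -0.0072 ± 0.24 (adjusted p = 0.987), and its 95% interval of -0.60 to 0.58 spans 0.661-fold to 1.5-fold.

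Sesn2 encodes a leucine-binding protein that restrains the growth kinase mTORC1. Its normalized log2 signal was -3.19, -3.43 and -3.33 on M17, M24 and M25, against -3.12, -3.52 and -3.03 on C4, C5 and C6. All border-zone arrays lay within the range of the sham arrays. The log2 fold change was -0.096 ± 0.17 (95% interval -0.51 to 0.31, adjusted p = 0.706). Neither Ddit3 nor Sesn2 was called in any of the 16 settings.

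**Figure D2:**
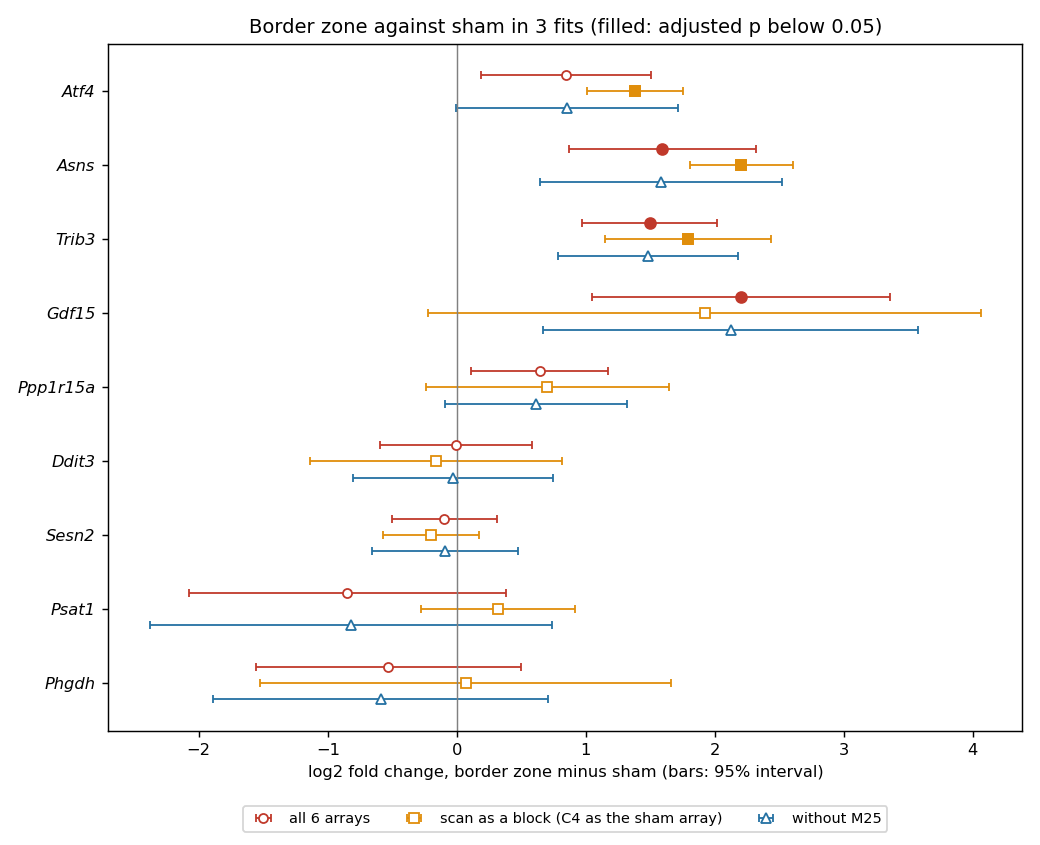
Log2 fold change (horizontal axis), border zone minus sham, of the 9 genes in 3 fits: all 6 arrays (red circles), scan as a block, with C4 the sham array (orange squares), and without M25 (blue triangles). Bars are 95% intervals and filled symbols have an adjusted p below 0.05. Asns and Trib3 are filled in both of the first fits, Gdf15 in the first and Atf4 in the second, and no symbol is filled without M25.

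Psat1 and Phgdh encode enzymes of serine synthesis: Phgdh opens the pathway from 3-phosphoglycerate and Psat1 carries out the next step, a transamination. The normalized log2 signal of Psat1 was -2.87, -3.33 and -3.18 on M17, M24 and M25, against -3.45, -1.68 and -1.71 on C4, C5 and C6. C4 lay below all border-zone arrays, and C5 and C6 lay far above them. The log2 fold change of Psat1 was -0.85 ± 0.50 over all arrays (adjusted p = 0.273). Blocking on the scan turned it to 0.32 (adjusted p = 0.345). Leaving out C4 gave -1.43 and a call lower (adjusted p = 0.00343).

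Phgdh read -1.79, -0.43 and -0.93 in normalized log2 signal on M17, M24 and M25, against -1.12, -0.20 and -0.24 on C4, C5 and C6. The groups overlapped, since C4 lay among the border-zone arrays. The log2 fold change of Phgdh was -0.53 ± 0.42 (95% interval -1.56 to 0.49, adjusted p = 0.398). Blocking on the scan gave 0.068 (adjusted p = 0.940).

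The same split of the sham arrays was seen in markers of central nervous tissue. The 14 such markers with a probe, of 15 listed, had a summed linear level of 1.44 to 1.77 in the border zone, against 2.24 on C4, 15.7 on C5 and 19.3 on C6. On C5 and C6, each of the 14 exceeded its level on M17, M24, M25 and C4. Of these, 8 or 9 were well above background on the border-zone arrays and 8 on C4, against 13 on C5 and C6, and the neuronal marker Syt1 was so on none. The median gap between the mean of C5 and C6 and C4 was 4.47 log2 units over these markers, against 1.75 for Psat1 and 0.90 for Phgdh. The part of these markers in the values of Psat1 and Phgdh was not tested. For Atf4, Asns and Trib3, C5 and C6 were also above C4, and the fold change was larger against C4 alone than over all sham arrays.

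**Figure D3:**
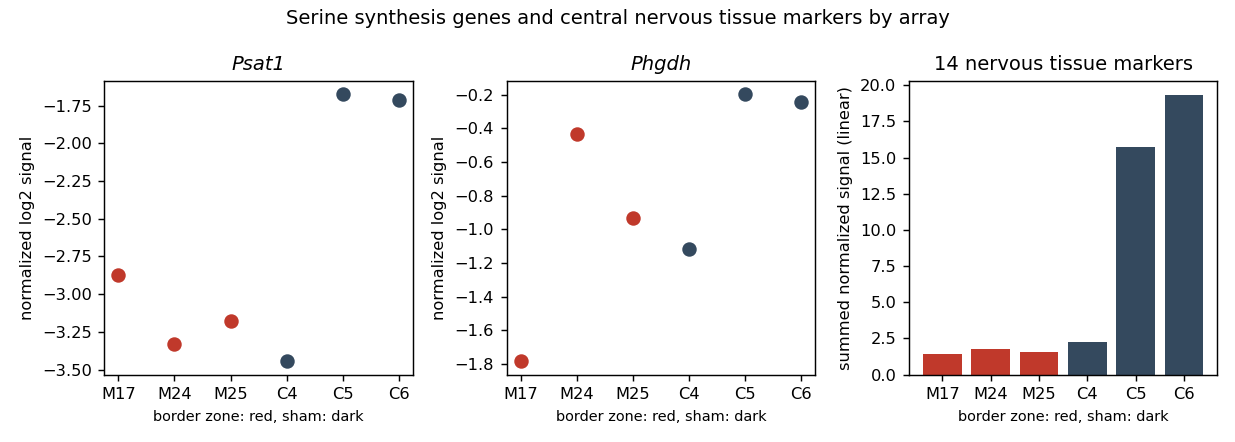
Normalized log2 signal of Psat1 and Phgdh by array (left and middle) and the summed linear signal of 14 central nervous tissue markers (right, bars from 0), with border zone in red and sham in dark blue. C5 and C6 are high in all 3 panels, with marker sums of 15.7 and 19.3, against 1.44 to 2.24 on the other arrays.

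Genes around the response were then counted in 7 further lists. Over all probes tested, 9.01% rose and 10.3% fell. Among 17 tested genes for eIF2, its kinases, its phosphatase and related factors, 6 rose and none fell, with a median log2 fold change of 0.37. The related factors were eIF2B subunits, Dele1, Oma1 and Dnajc3. The largest rise was Dnajc3, an inhibitor of the eIF2 kinase PERK, at 1.30 ± 0.27 (adjusted p = 0.0254), though with scan as a block it was 0.73 (adjusted p = 0.0534). The eIF2 subunit genes Eif2s2 (0.79 ± 0.11) and Eif2s1 (0.78 ± 0.17, and 0.47 with scan as a block) rose, as did Ppp1cb, a catalytic subunit of protein phosphatase 1 (0.71 ± 0.16, not called with scan as a block, adjusted p = 0.0608). The kinase genes did not pass: the log2 fold change was -0.33 for Eif2ak1 (HRI), 0.14 for Eif2ak2 (PKR) and -0.21 for Eif2ak3 (PERK), while Eif2ak4 (GCN2) was too dim to be tested. With scan as a block 2 of the 17 were called, and without M25 none, with 6 at an unadjusted p below 0.05.

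Among 20 other genes known as ATF4 targets, 6 rose, 3 fell and 11 did not pass, with a median log2 fold change of 0.091. Atf3, a stress-induced transcriptional repressor, rose by a log2 fold change of 3.13 ± 0.66 (adjusted p = 0.0276), with 2.74, 4.85 and 4.30 in the border zone against 1.48, 1.13 and -0.12 in sham. The call on Atf3 was lost with scan as a block (2.49, adjusted p = 0.140) and without M25 (adjusted p = 0.119). Nupr1, a small chromatin protein of the stress response, rose by 1.58 ± 0.17 (adjusted p = 0.00443), and Ndrg1, a hypoxia- and stress-induced gene, by 1.57 ± 0.19 (adjusted p = 0.00609). Both of these were also called with scan as a block and without M25. Cebpb, a partner of ATF4 on the composite element, rose by 1.17 ± 0.20 (adjusted p = 0.0166), and was not called without M25 (adjusted p = 0.0912). The 3 that fell, named after their values were seen, were Gpt2, a mitochondrial alanine transaminase (-0.96), the lipoprotein receptor gene Vldlr (-0.84) and Vegfa, the vascular growth factor gene (-0.81). None of the list was called lower with median scaling or without M24, M25 or C5. Blocking on the scan left 5 of the 20 called higher and 2 lower, and without M25 2 were called higher.

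Of 7 amino acid transporter genes tested, 5 rose and none fell, with a median log2 fold change of 1.04. The 2 that did not pass were Slc38a2, a glutamine transporter (-0.0097), and Slc6a9, a glycine transporter (-1.38). Slc1a5, a glutamine transporter, read 2.09, 2.05 and 2.02 in normalized log2 signal on M17, M24 and M25, against -0.24, -0.80 and -1.0 on C4, C5 and C6. It rose by 2.73 ± 0.21 (adjusted p = 0.00196), with no border-zone array near a sham array. Slc7a5, the light chain of the LAT1 leucine transporter, rose by 2.56 ± 0.15 as fitted (adjusted p = 0.00114). Only 1 of 3 sham arrays was well above background for Slc7a5. With the dim sham arrays raised as for Gdf15, the border zone was 5.85-fold higher, which is not a lower bound. With normexp background correction its log2 fold change was 1.1. Its partner chain Slc3a2 rose by 1.28 ± 0.22 (adjusted p = 0.0151), and Slc43a1, a further leucine transporter, by 1.04 ± 0.17 (adjusted p = 0.0135). With normexp Slc43a1 was at 0.24 and not called (adjusted p = 0.391). The scan block left 4 transporter genes called, and without M25 2 were called, Slc1a5 and Slc7a5.

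Of 6 tested genes of serine and one-carbon metabolism beyond Psat1 and Phgdh, 1 rose and 1 fell. Mthfd2, a mitochondrial folate enzyme, read -0.21, -0.076 and -0.12 in normalized log2 signal on M17, M24 and M25, against -2.39, -2.38 and -2.41 on C4, C5 and C6. The 3 sham arrays nearly coincided, unlike those of Psat1. Mthfd2 rose 4.79-fold (log2 fold change 2.26 ± 0.10, adjusted p = 0.000649), and it was called with scan as a block (adjusted p = 0.00786) and without M25 (adjusted p = 0.0133). Tyms, the thymidylate synthase gene, fell by 0.75 on the log2 scale (adjusted p = 0.0201), and was not called with scan as a block (adjusted p = 0.0793), without M25 (adjusted p = 0.112) or with median scaling (adjusted p = 0.0525). Psph, the last enzyme of serine synthesis, had a log2 fold change of 0.29 and did not pass.

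Of 20 aminoacyl-tRNA synthetase genes tested, whose products charge tRNAs with amino acids, 5 rose and none fell. The median log2 fold change was 0.32, and 16 of the 20 were above 0. In 15 of the 20 every border-zone array was above every sham array, a pattern seen for 20.9% of all probes tested. Cars1 (cysteine) was higher by 0.96 ± 0.20 (adjusted p = 0.0262), Yars1 (tyrosine) by 0.90 ± 0.12 (adjusted p = 0.00727), Sars1 (serine) by 0.87 ± 0.20 (adjusted p = 0.0338) and Hars1 (histidine) by 0.79 ± 0.13 (adjusted p = 0.0147). With scan as a block 3 of the 20 were called, Yars1 and Hars1 among them, and Cars1 and Sars1 were not, nor were these 2 with normexp (0.51 and 0.65). Without M25 none was called, and 6 passed an unadjusted p below 0.05. The composite element was found in 7 of the 18 synthetase promoters in the RefSeq table, including those of Cars1 and Yars1, where it lies after the start.

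Other stress pathways were counted for comparison. Of 17 tested genes of the ATF6 and XBP1 branches of the unfolded protein response, 4 rose and none fell, with a median log2 fold change of 0.21. They were the transcription factor genes Atf6 (1.39 ± 0.35, adjusted p = 0.0425) and Xbp1 (0.86 ± 0.20, adjusted p = 0.0372), and the chaperone genes Dnajb9 (0.65 ± 0.16, adjusted p = 0.0388) and Hspa5 (0.57 ± 0.13, adjusted p = 0.0362). For Atf6, 2 of 3 sham arrays were well above background. With the dim sham array raised as for Gdf15, Atf6 was 2.21-fold higher, which is not a lower bound. With scan as a block 1 of these 17 was called, and without M25 none, with 4 at an unadjusted p below 0.05. Atf6 was at 0.30 with normexp and not called (adjusted p = 0.170). Of 11 tested p53 target genes, 5 rose and 1 fell, with a median of 0.62. Gadd45a, a growth arrest gene, rose by 2.39 ± 0.23 (adjusted p = 0.00352), the antiproliferative gene Btg2 by 1.47 ± 0.15 (adjusted p = 0.00376), Tp53inp1 by 1.13 ± 0.24 (adjusted p = 0.0279) and the cell cycle inhibitor Cdkn1a by 1.07 ± 0.15 (adjusted p = 0.00846). The scan block left 5 of these 11 called higher and none lower. Without M25 2 were called, and the adjusted p was 0.125 for Tp53inp1 and 0.0650 for Cdkn1a. With normexp Tp53inp1 was at 0.23 (adjusted p = 0.521). The composite element was found in 0 of 16 promoters of the ATF6 and XBP1 list, 0 of 9 of the p53 list, 0 of 7 of the one-carbon list that holds Mthfd2, 2 of 21 of the eIF2 list, 3 of 8 of the transporters and 5 of 18 of the other ATF4 targets.

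**Figure D4:**
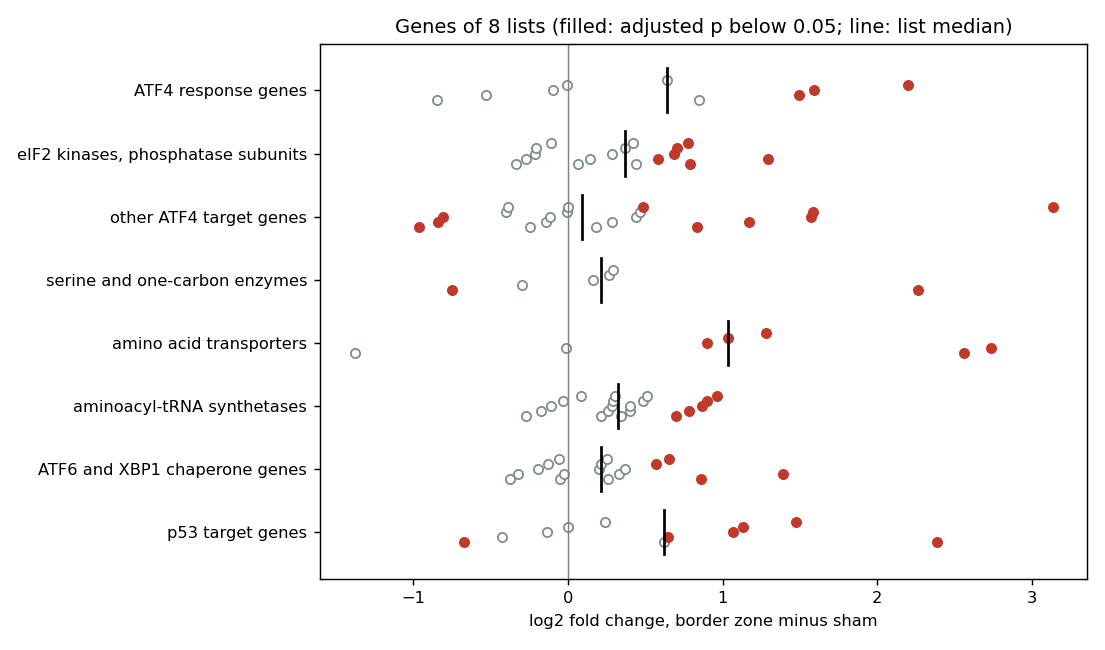
Log2 fold change (horizontal axis), border zone minus sham, of each tested gene in 8 lists, 1 row per list. Filled red points have an adjusted p below 0.05, open points do not, and black lines are list medians, from 0.091 for the other ATF4 targets to 1.04 for the amino acid transporters.

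Other cell types also differed between the groups. Neutrophil markers had a summed linear level of 6.36 to 6.62 in the border zone, against 0.28 to 0.52 in sham, and 8 of the 9 tested rose. All 9 were well above background on each border-zone array, against 7 on C4 and only 2 on C5 and on C6. The sham sums of these markers therefore rest partly on values near background. Monocyte and macrophage markers summed to 62.3 to 65.2 in the border zone, against 24.6 to 33.5 in sham, with 4 of 9 tested higher and 2 lower. Of these, 9 were well above background on each border-zone array and on C4, and 6 on C5 and on C6. Fibroblast markers summed to 78.6 to 91.7 in the border zone and 104 to 131 in sham, with 2 of 8 tested higher and 2 lower. The endothelial sums overlapped between the groups, with 1 of 5 tested lower. Red cell markers summed to 63.4 on M17, 7.56 on M24 and 46.7 on M25, against 53.6 to 70.6 in sham, and none of the 5 tested was called. The part of these cells in the rises of Asns, Trib3, Gdf15 and the genes of the other lists was not tested.

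The coding genes most like the risen genes were ranked by Pearson correlation over the 6 arrays, among 10989 coding genes. For Asns they were Gda, Tp53i13 and Gal (r between 0.998 and 0.9997), for Trib3 Stx11, Pdlim3 and Fdx1 (0.9987 to 0.9994), and for Gdf15 Slc25a25, Spry4 and Dnajb2 (0.9963 to 0.9970). Genes whose groups are separate correlate with each other over so few arrays, and 306 genes exceeded 0.95 for Asns, 418 for Trib3 and 238 for Gdf15. The ranking describes these 6 arrays only.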

How the data were processed

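Heart muscle RNA of 6 samples was measured on 1-colour Agilent arrays. Per the file headers, the spot intensity values are Agilent processed signals, background-subtracted but not normalized between arrays. Feature Extraction 11.0.1.1 is named in the submitters' processing notes. The deposited flags of 0 or 1 (control, outlier, well above background) are the other columns used. The authors' value table on the log2 scale served as an alternative, and 24415 of its 24529 rows matched. Spots of a probe were averaged, without control and outlier spots. Of 24684 probes, 24614 were usable on all arrays, and the 17930 tested were well above background throughout 1 group of 3 arrays or both. No spot was saturated. limma 3.58.1 in R 4.3.3 (lmFit and eBayes, two-sided) compared the groups. Scripts used Python 3.11.15. The labels do not say that arrays are separate animals, so p-values measure the spread between arrays, and the number of arrays limits precision.

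Probes were named through RefSeq accessions (GRCr8 table, 14265 probes with a gene). The array's own build is rn4, and no coordinates of it were used. A gene is its brightest probe. Genes and lists were chosen with earlier results of these data known. All 10 members were named, and of each other list up to 4 called genes by absolute fold. No list was tested. The alternatives were normexp background correction (offset 50, on median signals, as the scanner files hold no mean signals), median and quantile scaling, other filters on dim probes, scan as a block, the authors' table, a mean over a gene's probes, leaving out each array, and leaving out M25 with scan as a block. Fits were tested on simulated data.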

Additional observations from a re-analysis of the deposited data

How the results depend on the processing

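The count of the 9 genes called higher, 3 in the report, was 1 with normexp background correction (Atf4, with Asns, Trib3 and Gdf15 all lost) and 0 without M25 with scan as a block, where 3 passed an unadjusted p below 0.05 in limma, and between 0 and 3 when 1 array was left out. None was called lower except Psat1 without C4, a range of 0 to 1. Median scaling added Atf4. Signs turned for Ddit3 and Sesn2, which were near 0. Ddit3 was 0.19 with normexp, 0.18 with median scaling and -0.20 to 0.21 when 1 array was left out. Sesn2 was 0.094 with median scaling, 0.088 with quantile scaling, 0.088 in the authors' table and -0.24 to 0.00043 when 1 array was left out. Signs also turned for Psat1 (-0.85 in the report) and Phgdh (-0.53), only in the fits with scan as a block, which compare with C4 alone. Psat1 was 0.32 with scan as a block and 0.34 without M25 as well. Phgdh was 0.068 and 0.0087 in those fits. The cause was not tested. Of 134 alternative values of the 9 genes, 98 kept direction and call, 17 lost a call, 6 gained one and 13 turned sign. Of 26 named genes of the other lists, none turned sign, and calls lost ranged from 0 (without C4) to 19 (without M25) and 26 (without M25 with scan as a block). Counts called higher, over all alternatives, ranged from 0 to 9 for the eIF2 group (6 in the report), 0 to 7 for the other ATF4 targets (6), 0 to 5 for the transporters (5), 0 to 10 for the tRNA synthetases (5), 0 to 5 for the ATF6 and XBP1 genes (4), 0 to 5 for the p53 targets (5) and 0 to 1 for the one-carbon enzymes (1). Counts called lower ranged from 0 to 5 for the other ATF4 targets (3), 0 to 2 for the p53 targets (1) and 0 to 1 for the one-carbon enzymes (1), and all 3 were 0 with median scaling. For the eIF2 group, the transporters and the ATF6 and XBP1 genes, the count called lower ranged from 0 to 1 (0 in the report). No tRNA synthetase gene was called lower in any setting. The scaling moved the median of all probes from -0.026 to 0.16 with median scaling, where 67.6% of calls were higher, against 46.7% in the report. No paired analysis was possible because the groups share no replicate numbers. C5 and C6, with 51.0% and 52.4% of probes well above background, limit dim genes such as Gdf15.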
